A study of Mus musculus with 12 samples.

Results

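The genes examined were 10 genes of the cAMP and CREB signalling pathway, out of 21887 protein-coding genes on mouse chromosomes 1 to 19, X and Y. They were the adenylyl cyclases Adcy1 and Adcy8, the protein kinase A (PKA) catalytic subunits Prkaca and Prkacb, the CREB coactivators Crtc1, Crtc2 and Crtc3, and the transcription factors Creb1, Crem and Atf2. They were chosen by name, with earlier results of these data known. For each gene every called peak in the gene body and within 5 kb of its ends was taken. The measurements were lists of peaks from chromatin immunoprecipitation sequencing (ChIP-seq) of dorsal hippocampus of C57BL/6J mice with a pan-Kcr antibody from PTM BIO, which recognises crotonylated lysine, an acyl mark found on histones and other proteins. One list (learning) belongs to mice given training on spatial object recognition, a task on the places of objects, and the other (homecage) to mice that stayed in the home cage. Each condition had 1 antibody library, no treatment or transgene is named for either group, and neither the animals' age nor the number of animals in a library is given in the sources used here. The differences between the lists therefore have no replicate check and no p-value is given. The lists hold no expression values, so the tissue label was not checked against marker genes.

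In neurons, calcium entry or a G protein-coupled receptor activates adenylyl cyclase, which makes cyclic AMP. Cyclic AMP releases the catalytic subunits of PKA from their regulatory subunits, and PKA phosphorylates CREB, which binds the cAMP response element (CRE) of its target genes and recruits coactivators with histone acyltransferase activity. The pathway is known for its part in long-term memory in the hippocampus, where Adcy1 and Adcy8 encode the calcium-stimulated cyclases.

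The deposited lists gave 12 learning peaks and 140 homecage peaks at the 10 genes, out of 16002 and 331236 on these chromosomes. Learning peaks were present at 9 genes and homecage peaks at 10, where 30.9% and 90.5% of all protein-coding genes had one. Adcy8 had no learning peak. At 4 of the 7 genes with an annotated start site, Adcy1, Prkacb, Crtc3 and Atf2, a learning peak lay within the first 1 kb after it. Of all 17492 protein-coding genes with such a site, 13.3% had one. The remaining learning peaks lay deep inside Prkacb, Crtc1, Creb1 and Crem, near the higher-coordinate end of Crem, and in the flanks of Prkaca and Crtc2.

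The sequences around the start sites are shown because the learning peaks at these genes began close to them. RefSeq (GRCm38.p6) gave a start site for 7 of the 10 genes, and each sequence runs from 250 bases before to 50 bases after the start, 5′ to 3′ on the strand of the gene. Adcy8, Crtc2 and Crem had no entry. In the first 5 sequences the capitals mark CpG dinucleotides. The internal start of Prkacb is shown beside its outermost start because peaks of both lists covered it.
Adcy1 (chr11:7063183-7063482, plus strand): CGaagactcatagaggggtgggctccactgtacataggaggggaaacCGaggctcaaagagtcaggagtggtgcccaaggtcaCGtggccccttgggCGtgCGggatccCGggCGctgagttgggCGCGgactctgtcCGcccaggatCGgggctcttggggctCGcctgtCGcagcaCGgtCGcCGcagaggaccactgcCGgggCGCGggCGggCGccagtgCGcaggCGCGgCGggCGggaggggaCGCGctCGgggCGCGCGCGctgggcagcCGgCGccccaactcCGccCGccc
Prkacb, outermost start (chr3:146812897-146813196, minus strand): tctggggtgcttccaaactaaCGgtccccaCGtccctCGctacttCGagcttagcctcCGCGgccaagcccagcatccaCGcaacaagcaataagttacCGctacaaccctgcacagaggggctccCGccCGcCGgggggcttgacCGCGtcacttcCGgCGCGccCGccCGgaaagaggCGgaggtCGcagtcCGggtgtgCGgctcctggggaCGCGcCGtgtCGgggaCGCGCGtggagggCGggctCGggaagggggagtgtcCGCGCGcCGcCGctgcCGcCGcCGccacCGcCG
Prkacb, internal start (chr3:146770189-146770488, minus strand): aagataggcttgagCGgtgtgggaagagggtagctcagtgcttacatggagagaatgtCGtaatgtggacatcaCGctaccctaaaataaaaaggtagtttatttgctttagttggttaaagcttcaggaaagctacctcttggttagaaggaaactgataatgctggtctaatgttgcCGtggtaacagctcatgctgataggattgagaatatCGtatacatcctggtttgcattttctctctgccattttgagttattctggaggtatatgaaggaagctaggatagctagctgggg
Crtc3 (chr7:80688828-80689127, minus strand): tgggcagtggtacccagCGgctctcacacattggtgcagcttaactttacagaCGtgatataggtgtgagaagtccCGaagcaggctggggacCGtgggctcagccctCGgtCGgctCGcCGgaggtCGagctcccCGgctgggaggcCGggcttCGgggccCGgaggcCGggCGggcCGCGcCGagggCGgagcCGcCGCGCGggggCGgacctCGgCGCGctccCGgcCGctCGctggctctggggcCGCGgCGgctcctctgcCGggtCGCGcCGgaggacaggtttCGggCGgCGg
Atf2 (chr2:73892590-73892889, minus strand): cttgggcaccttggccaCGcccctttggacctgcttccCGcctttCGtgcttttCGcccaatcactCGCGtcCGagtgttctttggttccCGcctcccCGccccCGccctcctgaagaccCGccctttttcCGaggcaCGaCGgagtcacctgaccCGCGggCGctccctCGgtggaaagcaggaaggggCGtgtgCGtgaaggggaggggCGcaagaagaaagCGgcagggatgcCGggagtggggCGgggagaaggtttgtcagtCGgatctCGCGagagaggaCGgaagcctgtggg

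The outermost starts of the 7 genes were rich in CpG. Their 300-base windows held 28 CpG at Atf2, 31 at Creb1, 31 at Prkaca, 37 at Adcy1, 40 at Crtc1, 40 at Crtc3 and 41 at Prkacb, compared with a median of 13 over the 17492 protein-coding genes with a start in the table. The G and C content ranged from 66.0% to 74.7%, with a median of 71.7%, against 56.3% over all these genes. The internal start of Prkacb had 5 CpG and 42.3% G and C.

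A learning peak in the first 1 kb after the outermost start was found at 4 of the 7 genes (57.1%, exact 95% interval 18.4 to 90.1%), where 13.3% of the 17492 genes had one. Among start sites with at least 20 CpG in the window, a group chosen after the data were seen, the share was 24.6% of 6309, and among genes of 50 to 120 kb, which also was chosen afterwards, it was 20.8% of 2394. A homecage peak in the same stretch was also found at 4 of 7, here Adcy1, Prkaca, Crtc3 and Atf2. The shares to compare were 40.1% of the 17492 genes, 57.5% of the starts with at least 20 CpG and 50.3% of the genes of 50 to 120 kb. All 7 starts are CpG-rich by that measure, and their homecage share was close to that of CpG-rich starts in general. In the 1 kb before the start, the 7 genes had 0 learning peaks, and 4 of 7 had a homecage peak. The learning share was 5.83% over all genes and 11.3% of the starts with at least 20 CpG. The homecage shares were 28.5% and 39.2%. None of the 7 outermost 300-base windows touched a learning peak, compared with 4.62% of all. With 7 genes the intervals are wide, and counting intervals here cover counting error only.

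The positions after the start fell where learning peaks were most frequent around start sites in general. Over all 17492 starts, the share covered by a learning peak was highest 300 bp after the start, at 8.12%, compared with 2.98% at the start and 1.57% at 500 bp before it. The homecage list had its highest value at the same distance, 23.5%, with 12.8% at the start and 10.0% at 500 bp before it. The learning peaks at Crtc3 (69 to 384 bp after the start), Prkacb (230 to 539 bp) and Atf2 (230 to 569 bp) included that position, and the one at Adcy1 (373 to 813 bp) began beyond it.

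**Figure D1:**
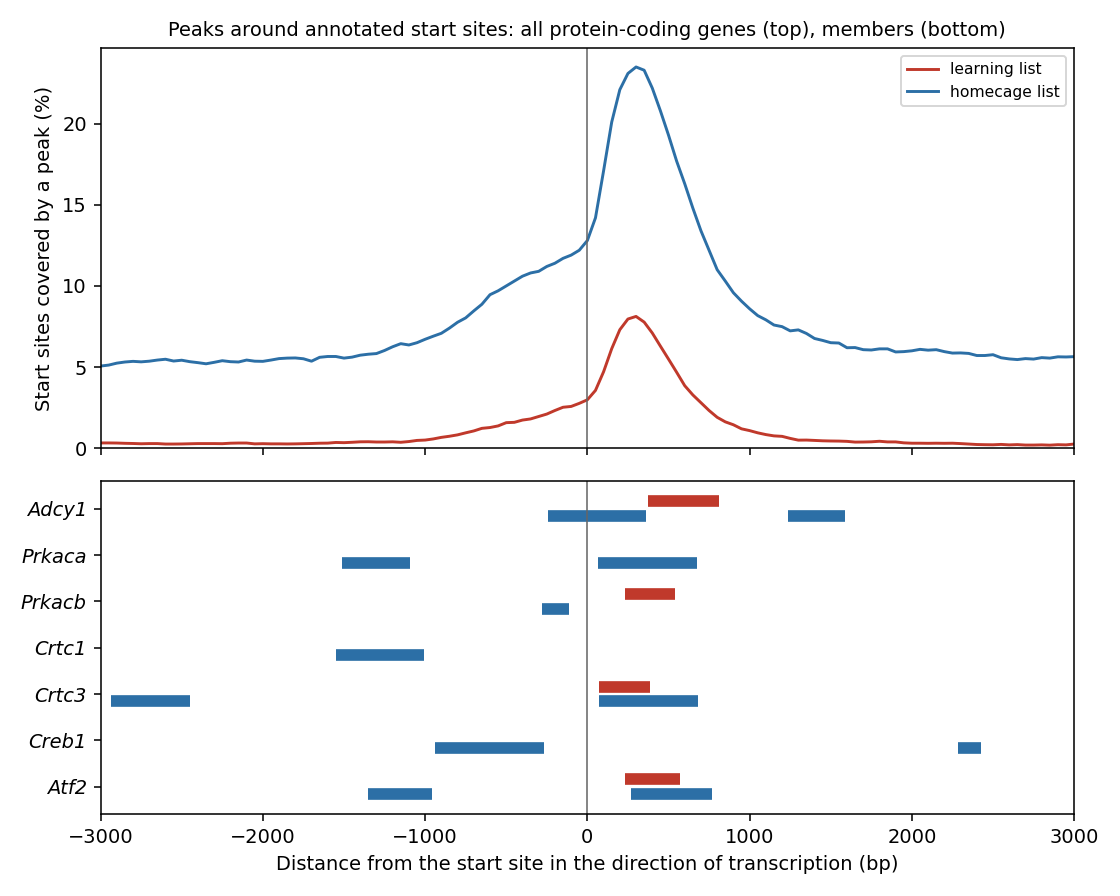
Top: share of 17492 protein-coding start sites (%, vertical axis) covered by a peak at each distance in bp from the start, for the learning and the homecage list. Bottom: the peaks of each list within 3 kb of the outermost start of the 7 genes with a tabulated start. Both curves are highest 300 bp after the start, and the 4 learning peaks at Adcy1, Prkacb, Crtc3 and Atf2 lie on that side of it.

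The cyclases differed from each other in the learning list. Adcy1 (chromosome 11, 7063433 to 7178506, 115 kb) had 1 learning peak of 441 bp at 7063806 to 7064246, the widest of the 12, and 15 homecage peaks. A homecage peak of 607 bp, 7063189 to 7063795, covered the start and 294 of the 300 bases shown above. It ended 10 bp before the learning peak began, so the start region of Adcy1 carried a peak in both lists that did not count as shared. The other homecage peaks of Adcy1 were scattered, with 2 before the gene and 12 inside it, the widest of 910 bp lying 89018 bp after the start.

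Adcy8 (chromosome 15, 64699035 to 64922296, 223 kb), the longest of the 10 genes, had 0 learning peaks, for which the exact upper limit is 3.69 peaks. Of the 2189 protein-coding genes in its length class (109 to 2390 kb), 66.0% had at least 1 learning peak. Its homecage peaks were the most numerous, 32, of which 29 lay inside the gene. Per 100 kb this was 13.7, close to the class median of 13.5, so the high number went with the length of the gene. Homecage peaks lay at both gene ends, one of 302 bp across the lower-coordinate end and one of 335 bp at 390 bp outside the other.

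The catalytic subunits of PKA, which carry the kinase activity, had learning peaks in different places. Prkaca (chromosome 8, 83972978 to 83996444, 23.5 kb) had 1 learning peak of 252 bp, at 84000050 to 84000301. It lay 3606 bp beyond the 3' end of Prkaca and inside the neighbouring gene Samd1, so its link to Prkaca rests on position within the flank. The nearest homecage peak was 2333 bp away. The window of Prkaca held 6 homecage peaks, 4 of them inside the gene, including one of 612 bp that began 66 bp after the start, where no learning peak was called.

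Prkacb (chromosome 3, 146729579 to 146812946, 83.4 kb) had 2 learning peaks and 15 homecage peaks. The first learning peak, 310 bp at 146812407 to 146812716, lay just after the outermost start and overlapped the uncharacterised gene model LOC115486180, whose own start it covered, so that the 2 genes cannot be told apart there. Its nearest homecage peak, 167 bp wide, lay on the other side of the start, 112 to 278 bp before it, with a gap of 341 bp. The second learning peak, 339 bp at 146770089 to 146770427, covered the internal start, with 239 of the 300 bases shown above inside it. A homecage peak of 229 bp lay within the same stretch and overlapped 67.6% of the learning peak. Prkacb is known to make several isoforms from different first exons, and of its 3 tabulated starts the outermost and the innermost had learning peaks within 1 kb while the middle one was 10988 bp from the nearest. The widest homecage peak at any of the 10 genes, 1552 bp, also lay in Prkacb, 57917 bp after the outermost start, with no learning peak over it.

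The CRTC proteins move into the nucleus when dephosphorylated and bind CREB as coactivators. Crtc1 (chromosome 8, 70382352 to 70439702, 57.4 kb) had 2 learning peaks and 12 homecage peaks. Its learning peaks, 165 bp at 70408550 to 70408714 and 435 bp at 70409245 to 70409679, lay near each other in the middle of the gene, about as far from one end as from the other, and 29894 to 31023 bp after the start. The wider one overlapped by 66 bp a homecage peak of 981 bp, and the narrower one was 648 bp from a homecage peak. In the first 1 kb after the Crtc1 start neither list had a peak, although its window held 40 CpG. The nearest homecage peak lay before the start, with a gap of 1003 bp.

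Crtc2 (chromosome 3, 90253858 to 90264125, 10.3 kb) had 1 learning peak of 213 bp, at 90265315 to 90265527, outside the gene by 1190 bp and inside Dennd4b. It lay 80 bp from the tabulated start of Dennd4b and overlapped by 114 bp a homecage peak of 1217 bp that is also in Dennd4b. Of the 4 homecage peaks in the window, 1, of 305 bp, was inside Crtc2. Crtc2 was the gene without a homecage peak within 1 kb of its ends. These peaks thus lay mostly at its neighbours.

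Crtc3 (chromosome 7, 80586627 to 80688948, 102 kb) had 1 learning peak of 316 bp, at 80688493 to 80688808, and 22 homecage peaks. The learning peak fell by 99.7% of its width inside a homecage peak of 613 bp that began 70 bp after the start, so both lists placed a peak at the same edge. At 19.6 homecage peaks per 100 kb, Crtc3 exceeded 87.8% of the genes in its length class (57.1 to 109 kb), the highest standing among the 10 genes. A homecage peak of 1514 bp inside it, 80607318 to 80608831, was the second widest of the 140.

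The transcription factors bind the CRE. Creb1 (chromosome 1, 64532794 to 64604548, 71.8 kb), the factor phosphorylated by PKA, had 1 learning peak of 197 bp, at 64583289 to 64583485, which lay 50485 bp after the start and entirely within a homecage peak of 272 bp. No learning peak was near its start. Of its 10 homecage peaks, one of 678 bp ended 265 bp before the start, and the widest, 957 bp, lay 34512 bp after it. Atf2 (chromosome 2, 73816509 to 73892677, 76.2 kb), which binds CRE-like sites and is a target of stress kinases, had 1 learning peak of 340 bp, at 73892070 to 73892409, and 9 homecage peaks. The learning peak lay by 88.2% of its width in a homecage peak of 498 bp, and it covered the start of the neighbouring gene model Gm10822, so the genes share this region.

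Crem (chromosome 18, 3266354 to 3337773, 71.4 kb), whose internal promoter makes the inducible repressor ICER, had 2 learning peaks and 15 homecage peaks. One learning peak, 248 bp at 3336677 to 3336924, lay 849 bp inside the higher-coordinate end, entirely within a homecage peak of 466 bp, and overlapped the gene model Gm6225. The other, 242 bp at 3277384 to 3277625, lay 11030 bp from the lower-coordinate end and 289 bp from the nearest homecage peak. The homecage peaks of Crem were narrow. Their median was 203 bp and the widest was the 466 bp peak at the gene end, so Crem was the member with no homecage peak of 500 bp or more.

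**Figure D2:**
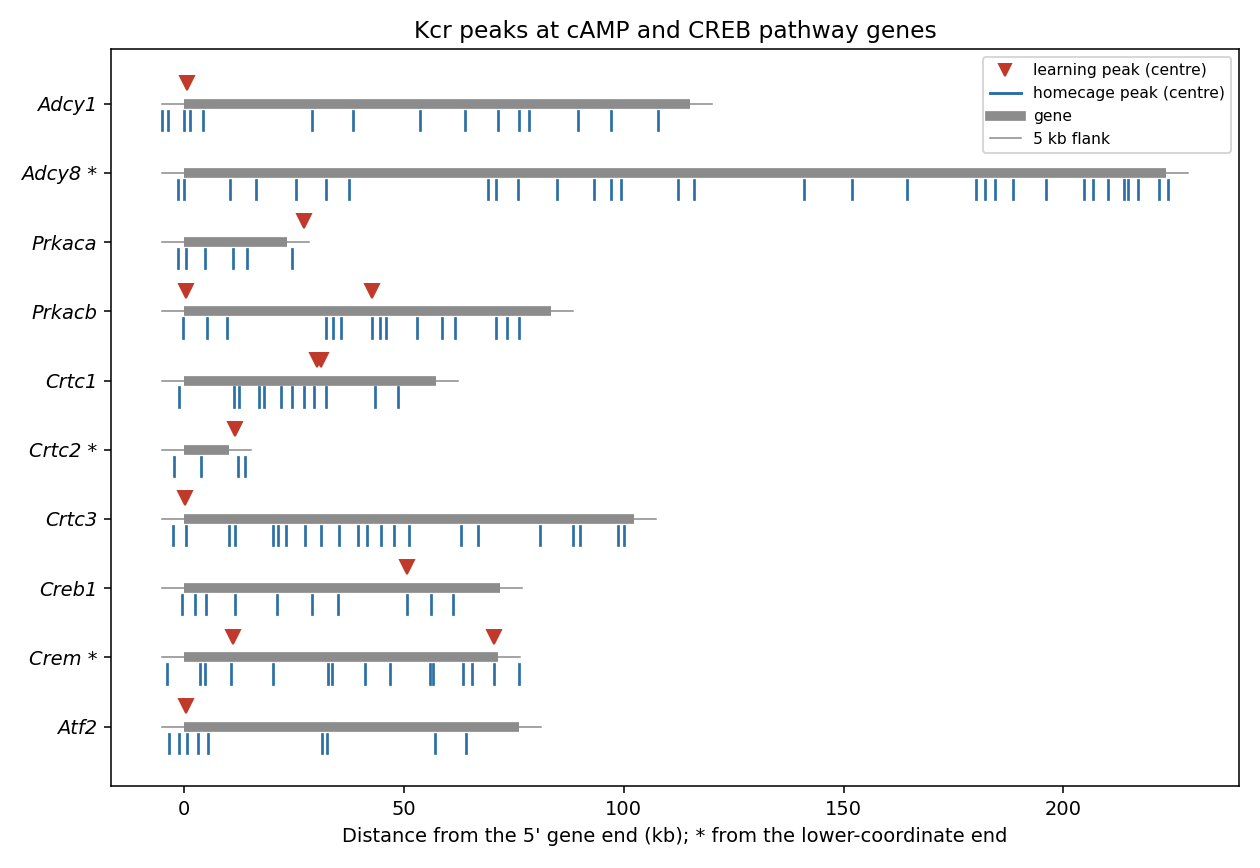
Position of every peak centre (triangles, 12 learning peaks; ticks, 140 homecage peaks) along the 10 genes and their 5 kb flanks, in kb from the 5′ gene end, or from the lower-coordinate end for the genes with an asterisk (Adcy8, Crtc2, Crem). Learning peaks stand at the left end of Adcy1, Prkacb, Crtc3 and Atf2, and Adcy8 has none.

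Gene ends, whichever is the start, can be compared for all 10 genes. A learning peak lay within 1 kb of a gene end at 5 genes (50%, exact 95% interval 18.7 to 81.3%), namely Adcy1, Prkacb, Crtc3, Crem and Atf2, while 15.6% of all protein-coding genes had one. A homecage peak did so at 9 genes (90%, 55.5 to 99.7%), while 60.9% of all did. The 5 genes with a learning peak there also had a homecage peak there, as 2999 of the 3410 genes with a learning peak at an end did. Genes of 50 to 120 kb have more peaks at their ends, 21.6% for learning and 68.0% for homecage peaks, and the 7 members of that length had a learning peak at 5 and a homecage peak at 7. Of the 12 learning peaks at the members, 5 (41.7%) were within 1 kb of a gene end and 5 lay deeper inside a gene, compared with 12 (8.57%) and 117 of the 140 homecage peaks. The lists differed in the same way over all protein-coding genes, where 33.3% of learning and 10.9% of homecage peaks in the windows lay within 1 kb of an end of the gene, each peak counted once per gene. Both shares lie inside the members' exact 95% intervals, 15.2 to 72.3% and 4.51 to 14.5%.

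Learning peaks in the gene body or its flanks were present at 90% of the members (55.5 to 99.7%), where 30.9% of all protein-coding genes had one. This share depends on gene length, and for the 7 members of 50 to 120 kb it was 7 of 7, against 46.9% of the 3020 genes of that length. Homecage peaks were present at every member, against 90.5% of all genes. The members together had 1.28 learning peaks per 100 kb of window (exact 95% Poisson interval 0.664 to 2.24), while all protein-coding genes together had 0.854. The homecage values were 15.0 (12.6 to 17.7) and 13.7. Both intervals include the value of all genes, so at this number of peaks a difference in density was not detectable. The median over genes for learning peaks was 1.68 at the members and 0 over all genes, and for homecage peaks it was 16.9 and 13.8.

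Within the members, the homecage density ranged from 10.4 peaks per 100 kb at Atf2, 12.0 at Adcy1, 12.2 at Creb1, 13.7 at Adcy8, 16.1 at Prkacb, 17.8 at Crtc1, 17.9 at Prkaca, 18.4 at Crem and 19.6 at Crtc3 to 19.7 at Crtc2. The counting intervals of neighbours in this order overlap, as do those of the lowest and the highest gene. At Crtc2 the value rests on 4 homecage peaks, of which 1 lay inside the gene. The learning density ran from 0 at Adcy8 and 0.80 at Adcy1 to 4.93 at Crtc2, where 1 peak fell in a window of 20268 bp. These values rest on 0 to 2 peaks a gene and give no order. There were 11.7 homecage peaks for each learning peak at the members, 16.0 over all protein-coding genes (a peak near several genes counted at each) and 20.7 over the whole lists.

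**Figure D3:**
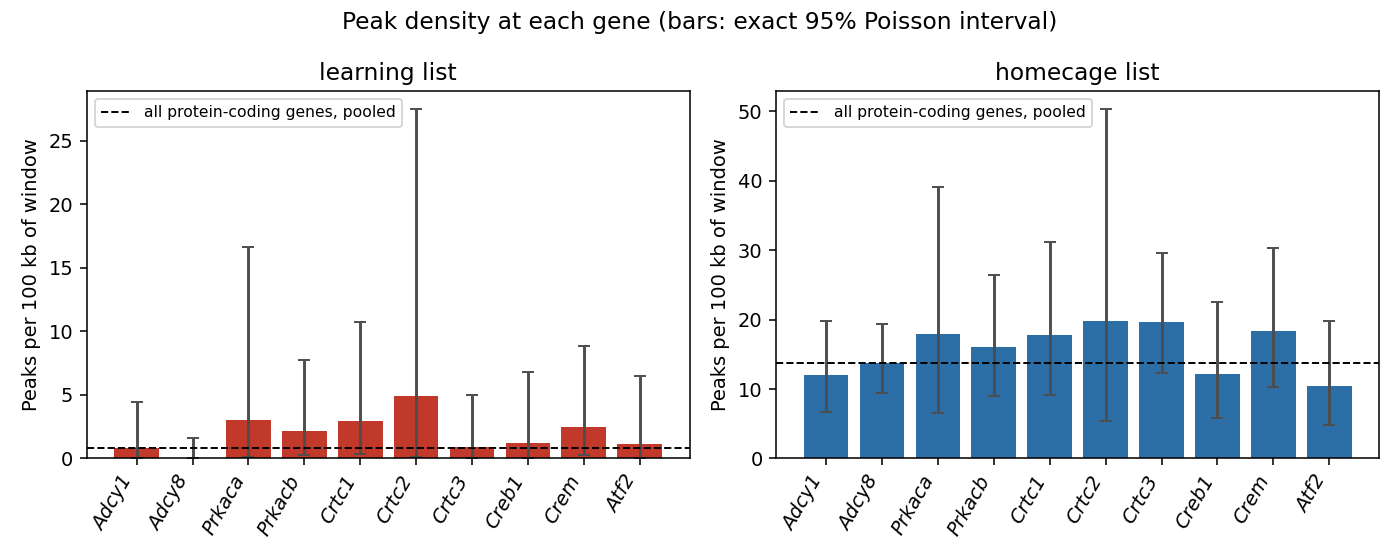
Peaks per 100 kb of gene body and 5 kb flanks (vertical axis, linear, different scale in each panel) at each of the 10 genes for learning (left) and homecage (right), with exact 95% Poisson intervals of the count. The dashed line is the pooled value of all protein-coding genes, 0.854 and 13.7, and the interval of every member includes it.

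At the members, 7 of the 12 learning intervals overlapped a homecage peak by at least 1 bp (58.3%, exact 95% interval 27.7 to 84.8%), and of the 9291 learning peaks at any protein-coding gene 48.1% did. The shared ones were at Prkacb, Crtc1, Crtc2, Crtc3, Creb1, Crem and Atf2, with 1 at each. The overlap was complete at Creb1 and Crem and smallest at Crtc1, where it took 15.2% of the learning peak. The 5 unshared learning peaks lay 10 bp (Adcy1), 289 bp (Crem), 341 bp (Prkacb), 648 bp (Crtc1) and 2333 bp (Prkaca) from the nearest homecage peak. Homecage peaks that overlapped a learning peak were 7 of 140 (5%, 2.03 to 10.0%), against 2.77% over all protein-coding genes, and the remaining 133 had no learning partner. Counting a homecage peak within 1 kb as shared raised the learning share to 91.7%, or every learning peak but the one beyond Prkaca. That wider rule was applied only at the members, so no share over all genes stands beside this value. The 48.1% above belongs to the 1 bp rule.

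The learning peaks at the members were of ordinary width, from 165 to 441 bp with a median of 281 bp, against 306 bp for the whole list. None reached 500 bp, a width that 15.6% of all learning peaks had. The homecage peaks ranged from 147 to 1552 bp with a median of 346 bp, against 351 bp for the whole list. Median homecage widths differed between genes, from 203 bp at Crem and 298 bp at Adcy8 to 562 bp at Crtc1 and 583 bp at Crtc2. The Crtc2 value rests on 4 peaks, of which 3 lay in the flanks, in neighbouring genes. The 1 inside Crtc2 was 305 bp wide. At Crtc1, 8 of the 12 homecage peaks were at least 500 bp wide, at Adcy8 6 of 32 and at Crem 0 of 15. Over the 10 genes 30.0% of the homecage peaks reached that width, against 24.8% of the whole list.

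**Figure D4:**
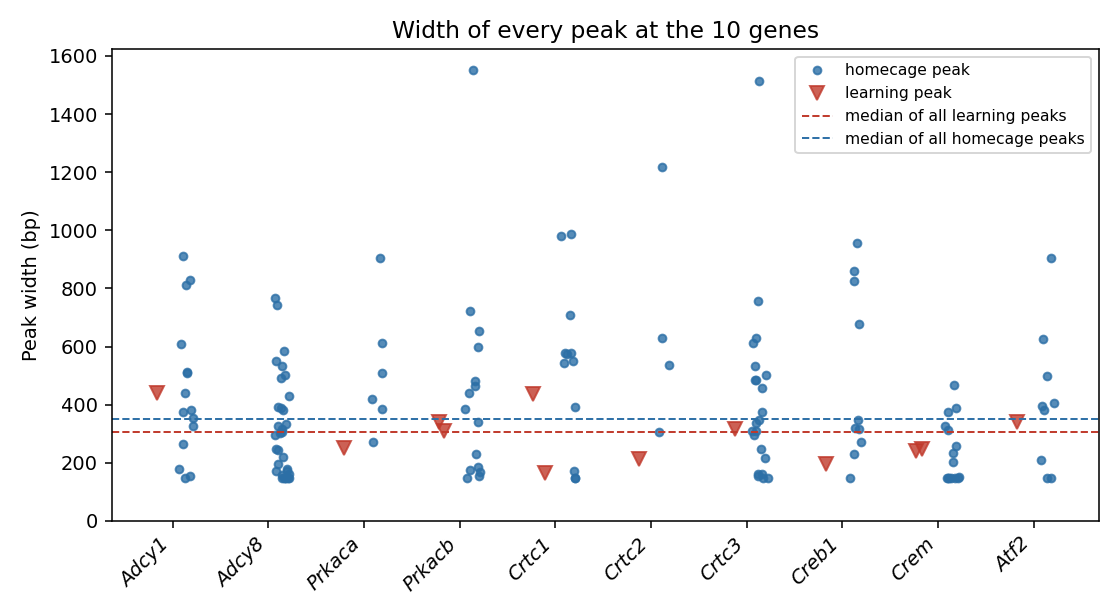
Width in bp (vertical axis) of every learning peak (triangles) and homecage peak (circles) at the 10 genes; points are spread sideways for legibility, and dashed lines are the medians of the whole lists, 306 bp and 351 bp. The learning peaks lie between 165 and 441 bp, and the homecage peaks of Crem reach 466 bp, below the widest peak of each other gene.

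The promoter of Prkaca was searched together with the others for the CRE, TGACGTCA, and for the shorter core TGACG, each on both strands, where a full site contains the core on each strand. Capitals mark the core.
Prkaca (chr8:83972728-83973027, plus strand): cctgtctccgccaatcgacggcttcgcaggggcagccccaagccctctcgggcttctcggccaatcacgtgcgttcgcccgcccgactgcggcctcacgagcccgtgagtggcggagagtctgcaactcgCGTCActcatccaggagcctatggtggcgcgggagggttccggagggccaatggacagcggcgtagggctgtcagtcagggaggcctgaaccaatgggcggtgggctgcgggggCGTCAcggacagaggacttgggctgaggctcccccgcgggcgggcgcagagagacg

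No full site was in the 7 windows at the outermost starts, and 2.33% of the 17492 windows of the same length held one. The core was in the windows of 2 of the 7 genes (28.6%), against 23.8% of all. Prkaca had 2, which began 120 and 6 bp before the start, and Prkacb had 1, which began 102 bp before its outermost start. The homecage peak of Prkacb covered the sequence from 112 bp before the start and further upstream, and so stopped short of that match, and the peaks nearest to the Prkaca start began 66 bp after it. A match describes the letters in the window and shows no binding.

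A further 51 genes of the pathway, also chosen with earlier results of these data known, were counted in the same way. Learning peaks within 1 kb of a gene end were present at 20 of the 51 (39.2%, exact 95% interval 25.8 to 53.9%) and homecage peaks at 38 (74.5%, 60.4 to 85.7%), beside the 15.6% and 60.9% of all protein-coding genes. Among protein-coding genes of 50 to 120 kb the shares were 21.6% and 68.0%, and the 51 genes were not matched by length. In the first 1 kb after the start, 17 of the 41 genes with a tabulated start had a learning peak (41.5%, 26.3 to 57.9%), beside 13.3% of all starts and 24.6% of those with at least 20 CpG. The median of these 41 starts was 27 CpG, against 13 over all. The median learning density was 0.616 peaks per 100 kb, against 0 over all genes, and the median homecage density 14.4, against 13.8. Together the 51 genes had 60 learning and 1093 homecage peaks, or 0.809 and 14.7 per 100 kb, where all protein-coding genes together had 0.854 and 13.7. The pooled learning density of the 51 genes was thus slightly below that of all genes, while their median was above it, and the interval of the former (0.617 to 1.04) includes the value of all genes.

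The learning peaks at gene ends were spread over most classes. The share over all protein-coding genes was 15.6%. It lay inside the exact 95% intervals of the cyclases (0.421 to 64.1%), the phosphodiesterases (13.7 to 78.8%) and the G proteins, receptors and ligand (6.67 to 65.2%). It also lay inside those of the anchors and the Epac genes. The intervals of PKA regulatory subunits and inhibitors (18.4 to 90.1%) and of CREB kin, coactivators and regulators (28.9 to 82.3%) lay above it. Among PKA regulatory subunits and inhibitors, 4 of 7 had one, namely the regulatory subunits Prkar1b, Prkar2a and Prkar2b and the inhibitor Pkia. Among phosphodiesterases, which degrade cyclic nucleotides, 4 of 9 had one (Pde1b, Pde2a, Pde4a and Pde10a). Among CREB kin, coactivators and regulators, 8 of 14 had one. These were the factors Atf1, Atf4 and Creb3l2, the CREB-like gene Crebl2, the acyltransferases Crebbp and Ep300, and the kinases Sik2 and Sik3, which phosphorylate CRTC proteins. The remaining genes were the cyclase Adcy6 (1 of 6 cyclases), and the receptors Drd1, Adora1 and Adcyap1r1 (3 of 10 G proteins, receptors and ligand). No learning peak was at an end of the 3 PKA anchors or the 2 Epac genes, and Akap5 had no peak in either list. At Prkar1b and Pde2a the learning peak had no homecage peak at either gene end.

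**Figure D5:**
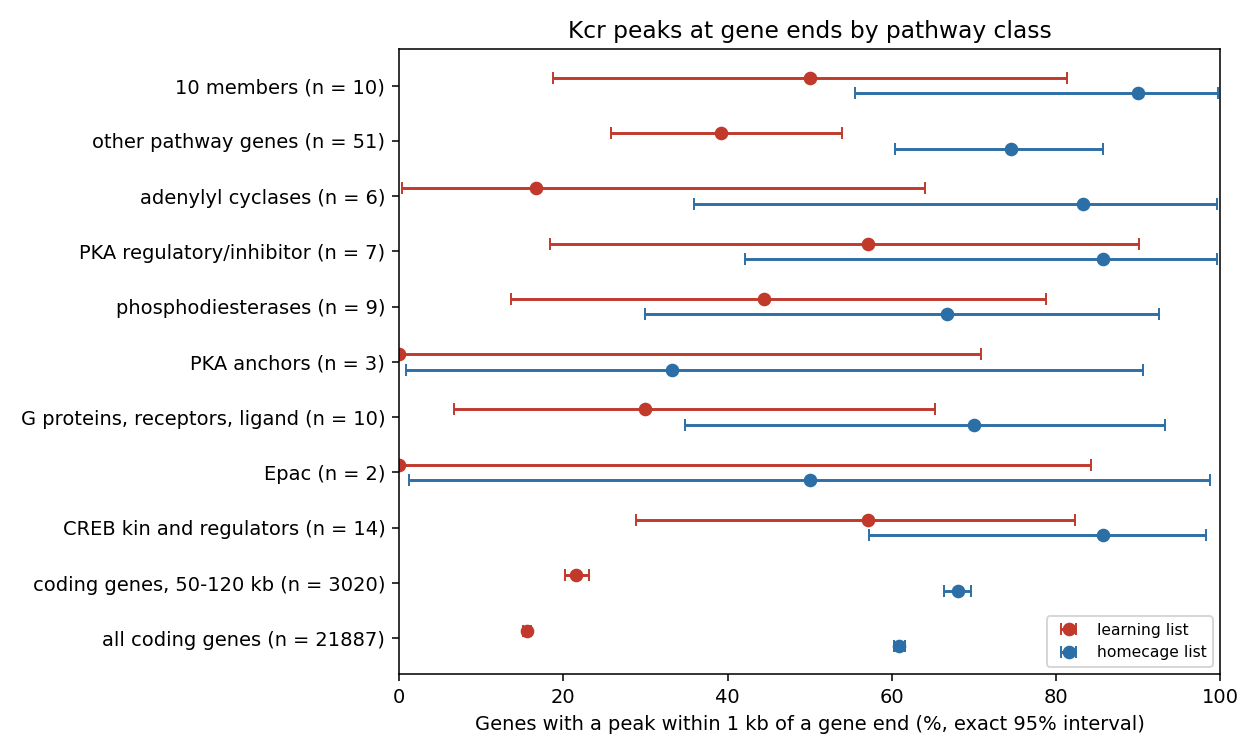
Share of genes (%, horizontal axis) with a learning or homecage peak within 1 kb of a gene end, for the 10 members, the 51 other pathway genes and their classes, protein-coding genes of 50 to 120 kb and all protein-coding genes, with exact 95% intervals. The members (50% and 90%) and the other pathway genes (39.2% and 74.5%) stand to the right of all protein-coding genes (15.6% and 60.9%), with wide intervals in the small classes. Protein-coding genes of 50 to 120 kb had 21.6% and 68.0%, and the pathway genes were not matched by length. The homecage intervals of the members (55.5 to 99.7%) and of the other pathway genes (60.4 to 85.7%) include 60.9%.

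Several of these genes had wider learning peaks than any member. The widest lay at Gnas, which encodes the stimulatory G protein alpha subunit (chromosome 2, 174329728 to 174330845, 1118 bp), Adcy9 (chromosome 16, 4419256 to 4420344, 1089 bp) and Crebbp, the CREB-binding protein (chromosome 16, 4213036 to 4213900, 865 bp), and at these genes 1 of 1, 1 of 1 and 1 of 3 learning peaks overlapped a homecage peak. The widest homecage peaks lay at Pde10a (chromosome 17, 8800709 to 8803055, 2347 bp), the adenosine receptor gene Adora1 (chromosome 1, 134232456 to 134234556, 2101 bp) and Ep300 (chromosome 15, 81644586 to 81646278, 1693 bp). The most learning peaks, 4 each, were at Pde10a, Pde2a and Pde4d, which had 68, 19 and 180 homecage peaks. Of the 4 learning peaks, 2 were shared at Pde10a and 0 at each of the other two.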

How the data were processed

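Processed files were analysed here for 2 of the 12 samples of the series, the pan-Kcr antibody libraries learning and homecage, grouped by their titles; the inputs were not analysed here. Tissue was crosslinked and sonicated, per the labels' protocols. The deposited files give chromosome, start, end and name of each peak and no strength or read count, so the depth is unknown. The submitters' processing notes name Trimmomatic, BWA, MACS2 and the build mm10, and the names of the peaks record broad calling with a p-value of 0.01, for each library. Use of the inputs as control is not given in the sources used here.

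On chromosomes 1 to 19, X and Y the lists held 16002 and 331236 peaks. Gene positions came from RefSeq GRCm38.p6, which is the same assembly as mm10, and start sites from its promoter table (7 of 10 members). Exon positions were not used here. Each peak overlapping a gene or the 5 kb beyond its ends was counted, with windows of 1 kb at gene ends and starts, overlap of at least 1 bp as shared, and 10 length classes of protein-coding genes. Coordinates are 1-based. Intervals are exact (Clopper-Pearson, Poisson; 95%). All 10 members and 51 pathway genes matched. Members are named in full, and of the pathway genes those with a learning peak at a gene end, the 3 widest peaks of each list and the 3 highest learning counts. The members and lists were chosen with earlier results of these data known. No test across conditions was made with 1 library each. The interval functions were tested on simulated data. Tools were pandas 2.3.3 and numpy 2.4.6 in Python 3.11.15, with scipy 1.17.1 for intervals and matplotlib 3.10.9 for plots.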

Additional observations from a re-analysis of the deposited data

How the results depend on the processing

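No paired analysis was possible because learning and homecage mice are represented by 1 antibody library each, and for the same reason no replicate could be left out. Under the alternatives 51 values were computed for 10 results. Of these, 42 were near the reported one (a share or ratio inside its counting interval, or a count less than 1.5 times off) and 9 moved. A change of direction was not assessed. Peaks of at least 500 bp left 0 learning peaks at the members, hence 0 members with a learning peak, 0 with one at a gene end and a density of 0 relative to all genes. The share of learning peaks that are shared then had no value. The same minimum left 42 homecage peaks, 5 members with a homecage peak at a gene end and 0% of homecage peaks shared. The widest homecage peaks, as many as the learning list holds, gave 9 at the members. Counting a homecage peak within 1 kb as shared raised the learning share at the members to 91.7%, a rule not applied to all genes. Gene bodies alone and flanks of 1 kb each left 7 members with a learning peak, since those of Prkaca and Crtc2 are in the flanks. The unknown depth limits every count of 0 and every difference between the lists.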

Other observations

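Peaks of the smallest width were frequent in the homecage list. At the members, 20 of 140 homecage peaks (14.3%, exact 95% interval 8.95 to 21.2%) were exactly 147 bp wide, compared with 10.4% of the whole list. Crem held 6 of them and Adcy8 5, while Prkaca and Crtc2 held 0. In the learning list the smallest width, 146 bp, was that of 8.90% of all peaks and of 0 of the 12 at the members.

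Some peaks at the members lay in other annotated genes as well. This was so for 5 of the 12 learning peaks, at Prkaca (Samd1), Prkacb (LOC115486180), Crtc2 (Dennd4b), Crem (Gm6225) and Atf2 (Gm10822), and for 22 of the 140 homecage peaks. The same counts were not made over all protein-coding genes, so whether these are ordinary is not known.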
